A study of Mus musculus with 4 samples.

Results

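The distal end of mouse chromosome 8 was examined for CTCF binding in hippocampus. Its members were all peaks of the deposited list on chromosome 8 whose midpoint lay at position 119000000 or beyond on the mm9 build, a choice made by position alone. There were 302 such peaks among 895 on the chromosome and 15109 in the whole list. The list came from chromatin immunoprecipitation and sequencing (ChIP-seq) of hippocampus of C57/Bl mice with an antibody against CTCF. According to the sample labels there were 2 ChIP libraries and 2 libraries of input chromatin, which had not been immunoprecipitated, whereas the series text counts a single input. Neither the age nor the sex of the mice is used here, and no group differs from another by genotype or treatment. Because the list combines the libraries, the spread between replicates cannot be given, the read depth is unknown, and no test between conditions was possible. The labelled tissue could not be checked against marker genes, since binding alone was measured.

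CTCF is a DNA-binding zinc finger protein that halts cohesin as it extrudes loops of chromatin, and pairs of CTCF sites often anchor such loops. In neurons, as elsewhere, it is found at boundaries between chromatin domains and near many promoters. In mouse the centromere lies at the low-coordinate end, so the peaks described here lie towards the far telomere. Distal chromosome 8 carries several well-studied genes. In the RefSeq gene table (GRCm38.p6), which contains all 12 genes listed as background, they follow each other as Cdh13, Irf8, Foxf1, Foxc2, Foxl1, Jph3, Cbfa2t3, Ankrd11, Mc1r, Tubb3, Disc1 and Itgb1. Cdh13 encodes a cadherin lacking a transmembrane domain, and Irf8 a transcription factor of myeloid cells, microglia included. Foxf1, Foxc2 and Foxl1 encode forkhead transcription factors, with Mthfsd between Foxf1 and Foxc2. Jph3 encodes a junctophilin of neurons, Ankrd11 a chromatin regulator, and Tubb3 the neuronal beta-tubulin, which directly follows Mc1r, the melanocortin receptor that sets coat colour. Cbfa2t3 encodes a transcriptional corepressor, Disc1 a scaffold protein studied in psychiatric disease, and Itgb1 an integrin subunit. That table is on another build than the peaks, so no peak was paired with a gene, and the names serve as a guide to the region only.

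CTCF peaks were dense beyond the boundary. The 302 peaks lay within 11.1 Mb, from the boundary to the end of the last peak, a density of 27.1 per Mb (95% Poisson interval 24.2 to 30.4). The rest of chromosome 8 held 593 peaks over 115.7 Mb, or 5.13 per Mb (4.72 to 5.56), and the whole list had 5.94 per Mb. The ratio of the 2 parts of the chromosome was 5.29 (exact 95% interval 4.59 to 6.09). The distal part thus carried 33.7% of the chromosome's peaks on 8.78% of its span. Intervals here and below cover counting error only. They treat peaks as independent, which neighbouring peaks are not. The region was picked with its density known, so the ratio describes it and is no test.

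All 11 full 1 Mb windows beyond the boundary held a peak, with a range of 3 to 63 and a median of 23. Below the boundary 40 of 115 windows (34.8%) were empty, the median was 2, and the fullest window held 38. Peaks were not spread evenly over the distal part. The window from 119000001 to 120000000 held 21 peaks, and the next 2 windows held 7 and 14. The 3 windows from 122000001 to 125000000 held 63, 52 and 59, and no other window of chromosome 8 held as many. Beyond them the counts were 30, 24 and 23, and then 5 and 3. A single further peak lay in the incomplete window after the last full one. In 1 Mb windows the profile thus rose abruptly with the window from 122000001, and beyond the 3 fullest windows it declined in steps towards the telomere. In 100 kb windows the rise was not placed there. The window from 121900001 to 122000000 already held 11 peaks, and that from 122000001 to 122100000 held 2. The fullest, with 21, began only at 122800001.

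**Figure D1:**
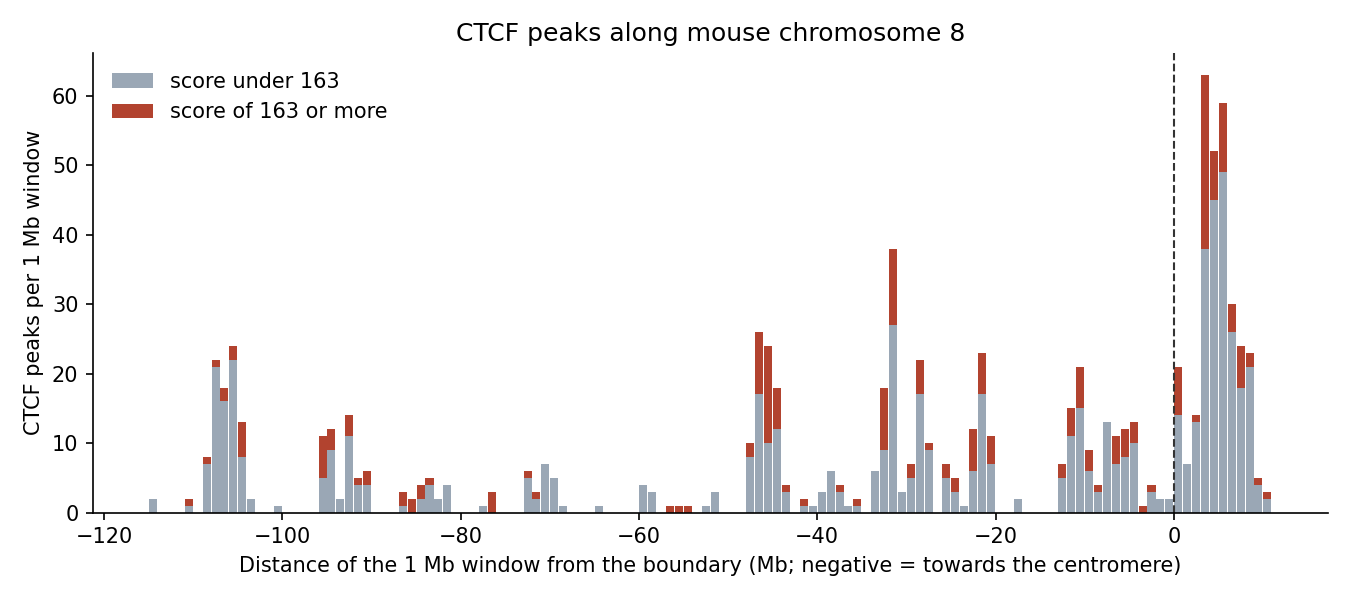
Number of CTCF peaks in each full 1 Mb window of chromosome 8 (y axis) against the distance of the window from the boundary in Mb (x axis), with peaks scoring 163 or more in red and the others in grey, in the list that combines all libraries. The 3 highest bars, with 63, 52 and 59 peaks, lie just beyond the dashed boundary, and the fullest window below it held 38.

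The boundary itself fell in a sparse place. The last peak below it, at 118968556 to 118968951, had a score of 43, and the first beyond it, at 119131274 to 119131803, had a score of 76. No peak lay in the 162 kb between them. The window from 120000001 to 121000000 was the emptiest before the dense stretch, with no peak scoring above 160. Of the 5 longest peak-free stretches beyond the boundary, 3 lay before the dense stretch and 2 after it. They measured 635 kb from 129260484 to 129895212, 588 kb from 120249090 to 120837361, 534 kb from 120837829 to 121372229, 502 kb from 121373872 to 121875389, and 349 kb from 126453080 to 126802184. Below the boundary 23 stretches were 1 Mb or longer, and the longest measured 5.05 Mb, whereas none beyond it reached 1 Mb.

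The stretch from 122000001 to 125000000 held 174 of the 302 distal peaks (57.6%) on 27.0% of the distal span. Its density was 58.0 peaks per Mb (49.7 to 67.3). The other 128 distal peaks had a density of 15.7 per Mb (13.1 to 18.7), which was 3.07 times that of chromosome 8 below the boundary (2.52 to 3.72). The distal density therefore exceeded that of the rest of the chromosome outside the dense stretch as well, by a smaller factor. When the genome was divided into 829 non-overlapping 3 Mb windows in step with this stretch, it was the fullest. The next was on chromosome 11 from 116000001 to 119000000 with 155 peaks, followed by chromosome 4 from 149000001 to 152000000 with 128. The median window held 9. The stretch also came first among 2485 windows moved in steps of 1 Mb. It was chosen with its peaks known and the windows were aligned to it, so these ranks describe it and are no test.

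Within the dense stretch every 100 kb window held at least 1 peak, 30 of 30. Of the 30 windows between the boundary and the stretch, 16 were empty, and of the 50 windows after it, up to the end of the last full Mb, 18 were empty. In the stretch 16 windows held 5 or more peaks, against 2 before it and 4 after it. Occupancy in the stretch was thus continuous at this scale, and the longest peak-free piece in it measured 117 kb.

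**Figure D2:**
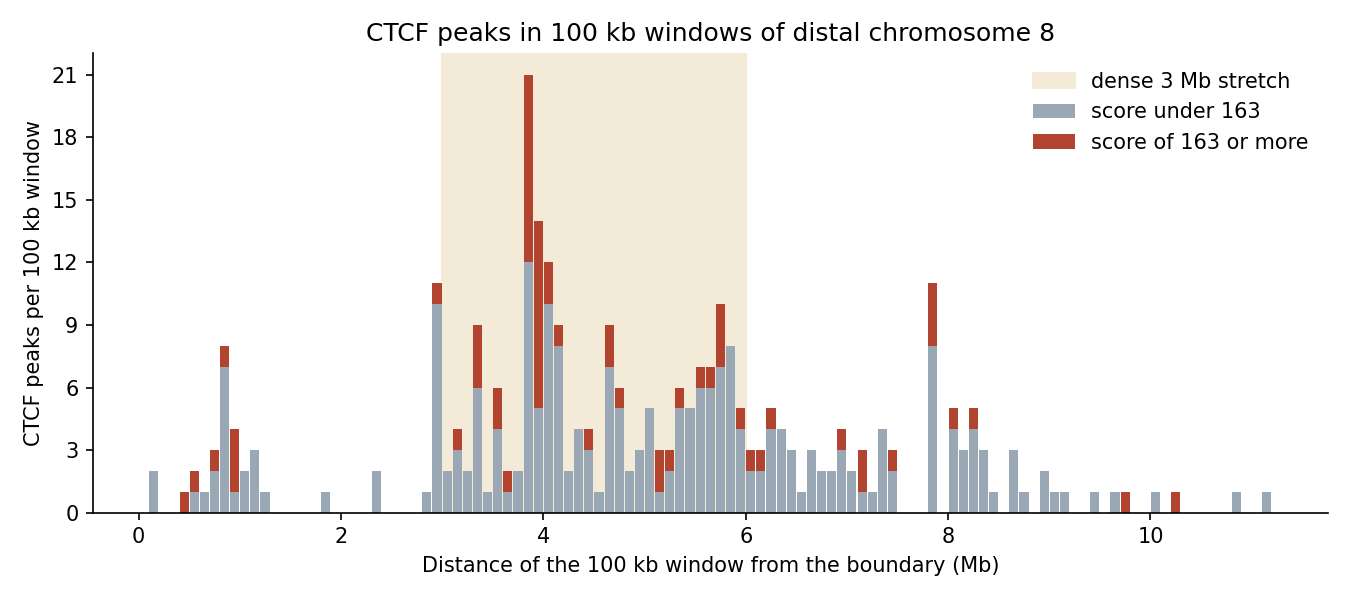
Number of CTCF peaks in each 100 kb window of distal chromosome 8 (y axis) against its distance from the boundary in Mb (x axis), with peaks scoring 163 or more in red, the others in grey and the dense stretch shaded. All 30 windows of the stretch are filled, and the tallest bar holds 21 peaks, 9 of them scoring 163 or more.

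The 5 fullest 100 kb windows were of different kinds. The fullest, from 122800001 to 122900000, held 21 peaks, more than any of the other 6938 occupied 100 kb windows in the list. The next, from 122900001 to 123000000, held 14, and the one after that, from 123000001 to 123100000, held 12. The first 2 of them contained 9 peaks each that scored 163 or more, and no other window of the list had as many. In contrast, the third had 2 such peaks. The window from 121900001 to 122000000, just before the dense stretch, held 11 peaks with a median score of 55 and only 1 scoring 163 or more. It was a cluster of weak peaks, most of which lay before a peak of 441 at 121970369 to 121970796. The next peak after that one was 19.4 kb away. The window from 126800001 to 126900000 held 11 peaks with a median score of 72, the highest of which scored 256.

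Strong peaks, meaning those with the authors' score of 163 or more, made up 64 of the 302 distal peaks. This was 21.2% (exact binomial interval 16.7 to 26.2), against 25.4% of all peaks in the list and 26.8% (23.3 to 30.6) of the chromosome 8 peaks below the boundary. The intervals of the 2 parts of the chromosome overlap, which does not by itself decide whether the shares differ. The difference was not tested. Among the highest scores, 22 distal peaks (7.28%, 4.62 to 10.8) reached 338, the 90th percentile of the list, against 10.2% of all peaks and 12.5% (9.93 to 15.4) below the boundary. Median scores were 90 and 97, respectively, and the median of the list was 93. Counted per Mb, strong peaks were still more frequent beyond the boundary, at 5.75 per Mb (4.43 to 7.34) against 1.37 per Mb (1.17 to 1.61), a ratio of 4.18. For weaker peaks the ratio was 5.70.

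The strong share varied along the distal part. In the window from 122000001 to 123000000 it was 25 of 63 peaks, or 39.7% (27.6 to 52.8), and no 1 Mb window of the list held more strong peaks. The 2 remaining windows of the dense stretch held 7 of 52 (13.5%) and 10 of 59 (16.9%). They were nearly as full as the first, but with far fewer strong peaks. Their joint share was 15.3% (9.18 to 23.4). Over all distal peaks outside the first window the share was 16.3% (11.9 to 21.6), and in the distal part outside the stretch it was 17.2% (11.1 to 24.9). Leaving out the window richest in strong peaks lowers the remaining share by construction, so these values are descriptions and are not read against the share of all peaks. The window from 119000001 to 120000000 had 7 strong peaks among 21 (33.3%, 14.6 to 57.0), too few to place it above or below the others. The first window was singled out after its values had been seen.

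**Figure D3:**
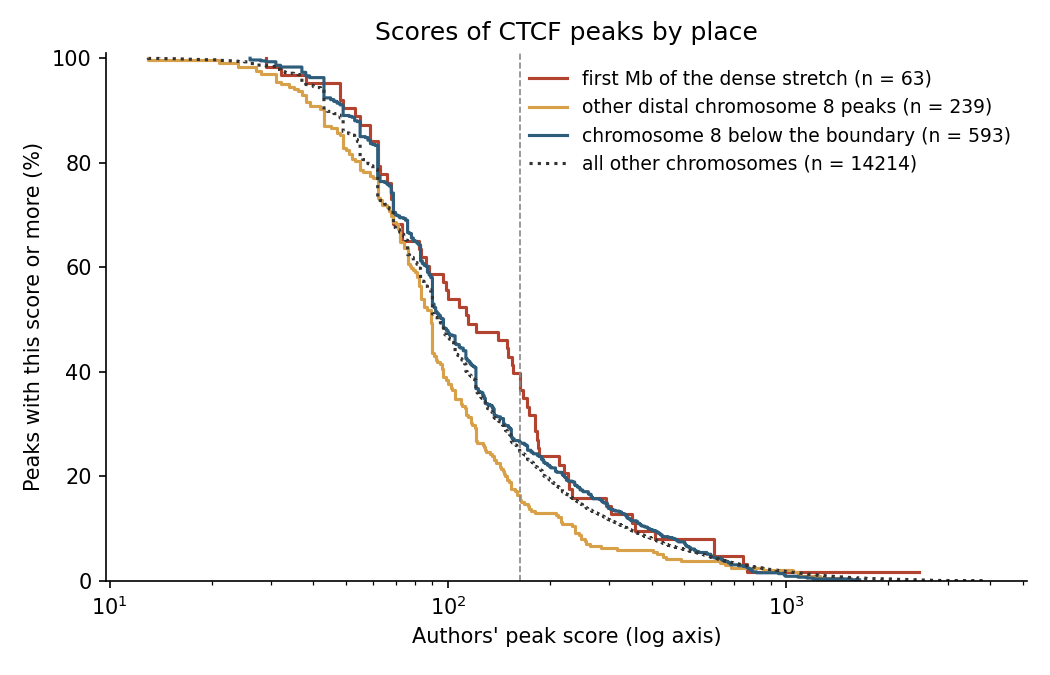
Share of peaks with at least a given score (y axis, %) against the authors' peak score (x axis, log scale) for the first Mb of the dense stretch (63 peaks), the other distal peaks (239), chromosome 8 below the boundary (593) and all other chromosomes (14214), with a dashed line at 163. At that line the first Mb stands at 39.7%, the other distal peaks at 16.3% and the peaks below the boundary at 26.8%.

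Most strong peaks of the first window lay in its last 200 kb, from 122800001 to 123000000. That piece held 35 peaks, 18 of them strong (51.4%, 34.0 to 68.6), and accounted for 28.1% of all strong distal peaks. In the other 800 kb the strong share was 7 of 28, or 25.0% (10.7 to 44.9). Leaving out the piece richest in strong peaks lowers this share by construction, so it is not read against that of the list. The median distance between adjacent strong peaks in the 200 kb was 10.7 kb, with a range of 1.74 to 37.7 kb. All but 1 of its 35 peaks had another peak within 10 kb.

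This piece opened with a pair of peaks at 122804637 to 122806817, scoring 150 and 233. A run of 4 peaks followed at 122811755 to 122816957, with scores of 612, 409, 121 and 213 in order of position. Thus 3 of these 4 adjacent peaks were strong. After a peak of 350 at 122824189 to 122825102 came the highest-scoring peak of chromosome 8, at 122842996 to 122844299, scoring 2466 over 1304 bp. By score it was number 21 of the whole list. Its neighbour on the low-coordinate side, 0.517 kb away, scored 183 and was wider, at 1552 bp. The neighbour on the other side, 2.49 kb away, scored 69. The peaks then thinned out, with 30.0 kb free after 122859846. Farther on, strong peaks were mixed with weak ones. They included 358 at 122892648 to 122893150, 612 at 122928462 to 122929007, 293 at 122931546 to 122932058, 227 at 122948759 to 122949640 and 228 at 122973430 to 122973921. The piece closed with a peak of 174 at 122995077 to 122995541. Its strong peaks were thus mostly of moderate score: only 1 exceeded 1000.

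**Figure D4:**
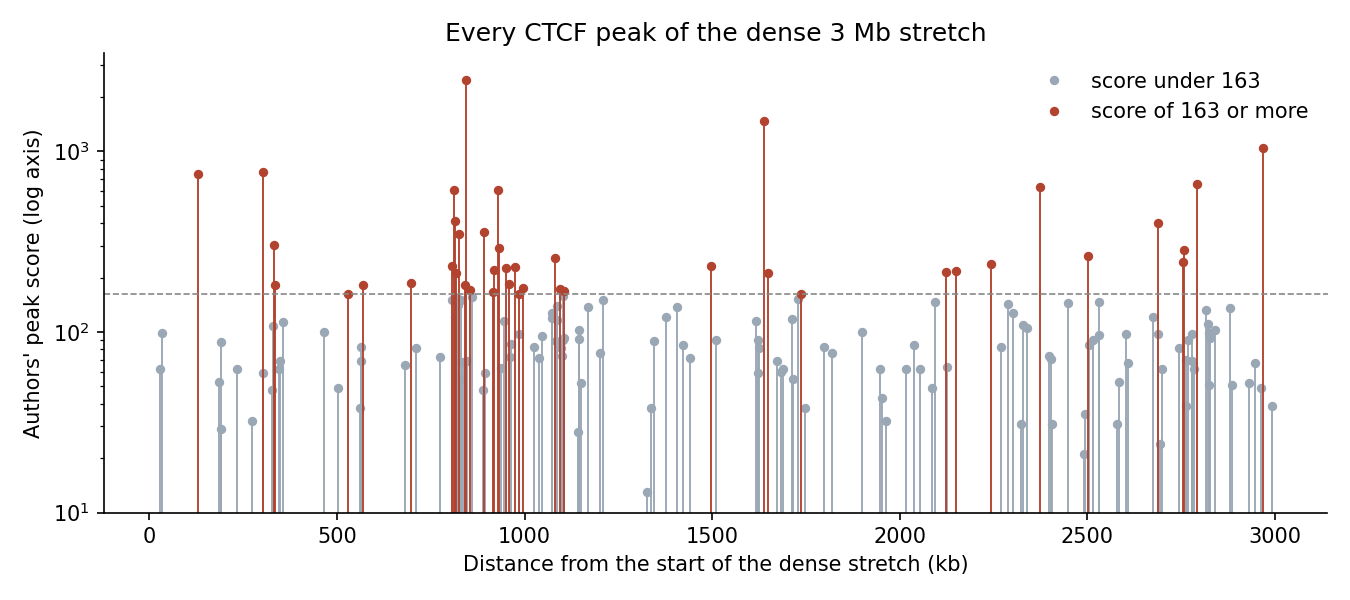
Every CTCF peak of the dense 3 Mb stretch, with the authors' score (y axis, log scale) against the distance of its midpoint from the start of the stretch in kb (x axis), strong peaks in red and the others in grey, and a dashed line at 163. Strong peaks crowd into the last 200 kb of the first Mb, where 18 of 35 peaks scored 163 or more, and are spread thinly over the rest.

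The 20 highest-scoring distal peaks had scores of 403 or more and widths of 428 to 1938 bp. Of them, 11 lay in the dense stretch, which held 57.6% of all distal peaks. After the peak of 2466, the next was at 123637173 to 123637835 and scored 1466. It was 663 bp wide and stood 11.4 kb from the nearest peaks on either side, which scored 82 and 212. The third, at 125966742 to 125967379, scored 1260, was 638 bp wide and also lay more than 10 kb from any other peak. Both widths were below the 1304 bp of the highest-scoring peak but above 629 bp, the third quartile of distal widths. Across the 302 peaks the score rose with the width (Spearman's rho = 0.58, a description across peaks of the same list). The fourth and the fifth were wider. A peak at 128781823 to 128783152 scored 1097 in the sparse end of the chromosome, 102 kb from its nearest neighbour. Another at 119902568 to 119903849 scored 1085, with a strong peak of 181 lying 2.77 kb before it and another of 208 at 17.9 kb after it. The peak at 124966736 to 124968136, near the end of the dense stretch, scored 1048. In all, 6 distal peaks scored above 1000 (1.99%, 0.733 to 4.27), against 1.73% of all peaks in the list, which is within that interval. Below the boundary 5 of 593 did (0.843%, 0.274 to 1.96), and the highest there, at 62984308 to 62985459, scored 1649.

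Of the 4 peaks next in rank, 2 lay in the dense stretch and 2 beyond it. A peak of 853 at 126166884 to 126168035 had a weak companion of 43 only 0.281 kb away. In the dense stretch, a peak of 768 at 122301421 to 122302545 had one of 59 at 0.503 kb, and a peak of 746 at 122128774 to 122129467 stood alone, with at least 55.5 kb free on each side. A peak of 688 at 129259523 to 129260483 was the most isolated of them, with 238 kb free before it and 635 kb after it. The other 10 scored 403 to 659. They lay at 124792829 to 124793832 (score 659), 124373762 to 124375673 (637), 122811755 to 122812716 (612), 122928462 to 122929007 (612), 126415240 to 126417177 (489), 121970369 to 121970796 (441), 125075349 to 125075861 (433), 126152271 to 126153326 (414), 122813289 to 122814657 (409) and 124686573 to 124687450 (403). Of the 20, 13 had another peak within 10 kb, against 202 of all 302 distal peaks (66.9%) and 42.9% of the list. The count is near the distal share, so it is not read as a trait of the strongest peaks. High scores were found both in company and alone.

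The 3 weakest peaks of the dense stretch had no strong peak next to them. The lowest score of chromosome 8, 13, was that of a peak at 123324687 to 123325198, which followed the 117 kb without a peak. The next lowest in the stretch were 21 at 124490602 to 124491023 and 24 at 124694359 to 124694901. Median widths were close in both parts of the chromosome. The median was 483 bp beyond the boundary and 475 bp below it, and 22 distal peaks (7.28%) were wider than 1 kb, against 4.55% below the boundary and 5.75% in the list. The 3 widest were the peak of 1938 bp at 126415240 to 126417177, that of 1912 bp at 124373762 to 124375673 and one of 1718 bp at 127200528 to 127202245, which scored 248. Peaks covered 1.55% of the distal span and 3.33% of the dense stretch, against 0.281% of chromosome 8 below the boundary.

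Close neighbours were frequent among the distal peaks. Another peak midpoint lay within 10 kb of 202 of the 302 distal peaks, or 66.9% (61.3 to 72.2), against 42.9% of all peaks and 38.6% (34.7 to 42.7) below the boundary. In the dense stretch the share was 75.3% (68.2 to 81.5), and among the other distal peaks 55.5% (46.4 to 64.3). The median distance to the nearest other midpoint was 4.72 kb beyond the boundary, 3.64 kb in the stretch and 17.0 kb below the boundary. A higher density by itself brings peaks closer together. How much of the difference it accounts for was not tested. The same count was made among strong peaks alone. Of the 64 strong distal peaks, 21 had another strong peak within 10 kb (32.8%, 21.6 to 45.7), against 15.5% of all strong peaks in the list, and 17 of these 21 lay in the dense stretch. Below the boundary 19 of 159 did (11.9%, 7.35 to 18.0). Most of the 21 distal ones lay in the 200 kb from 122800001 to 123000000, which was singled out after its values had been seen. The share of 32.8% therefore does not describe the distal part outside that piece.

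**Figure D5:**
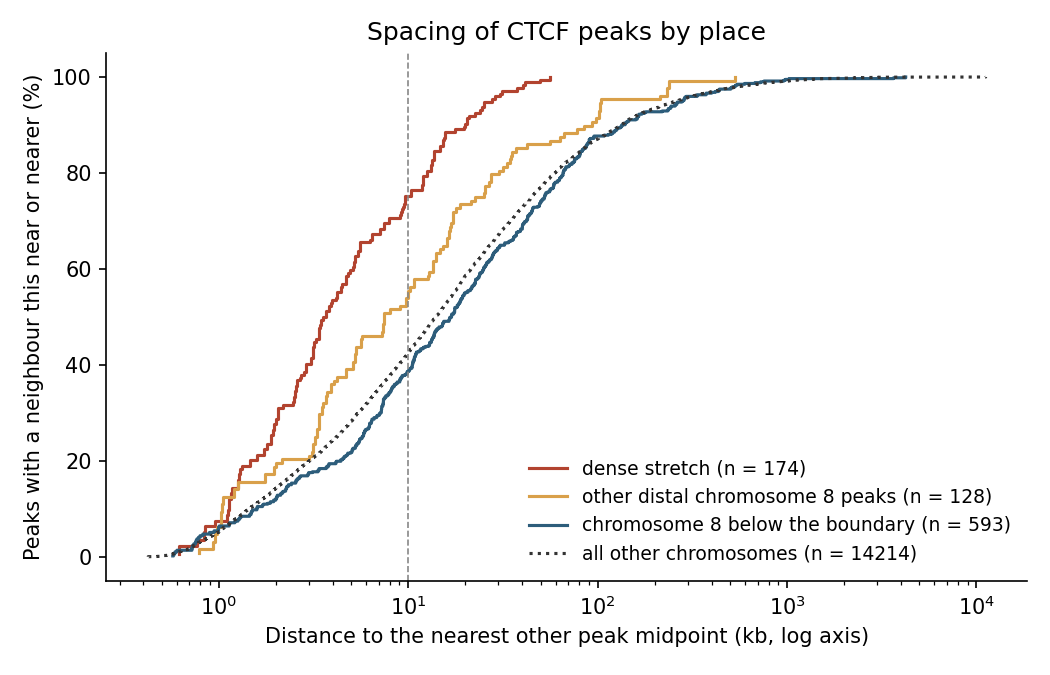
Share of peaks (y axis, %) whose nearest other peak midpoint lies within a given distance in kb (x axis, log scale), for the dense stretch (174 peaks), the other distal peaks (128), chromosome 8 below the boundary (593) and all other chromosomes (14214), with a dashed line at 10 kb. At that line the dense stretch stands at 75.3%, the other distal peaks at 55.5% and the peaks below the boundary at 38.6%.

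Some distal peaks stood almost side by side. Taking peaks with under 1 kb between them as a run, 63 distal peaks formed 28 runs (20.9% of the peaks, 16.4 to 25.9), against 10.5% (8.11 to 13.2) in 30 runs below the boundary and 11.6% in the list. Here too a higher density by itself brings more runs, and how much of the difference it accounts for was not tested. Of the 28 runs, 18 lay in the dense stretch. Joining the runs left 267 separate regions. The shares of strong peaks in runs and among single peaks had overlapping intervals, 25.4% (15.3 to 37.9) and 20.1% (15.2 to 25.7). In 15 runs no peak was strong, in 11 there was 1, and in 2 there were more, both within the 200 kb described above. Several runs paired a strong peak with a weak one, such as 853 with 43, 768 with 59, 489 with 45 and 403 with 97. Whether such a companion is a site of its own or was split from the flank of the strong peak was not tested.

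There were 4 runs of 3 or more peaks. The run at 122811755 to 122816957 has been given above. That at 123101711 to 123105281 held 4 peaks over 3.57 kb with scores of 158, 90, 93 and 168, the strongest only just past 163. At 124823809 to 124826607 a run of 3 scored 51, 99 and 92. The longest run, at 127199139 to 127204632, covered 5.49 kb beyond the dense stretch with scores of 90, 248, 59 and 103, and its second peak was the one of 1718 bp. The 4 runs thus ranged from all weak to mostly strong.

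The fullest windows below the boundary give the nearest comparison on the same chromosome. The window from 87000001 to 88000000 held 38 peaks, 11 of them strong, and that from 72000001 to 73000000 held 26, with 9 strong. In the window from 73000001 to 74000000 14 of 24 peaks were strong, whereas in that from 13000001 to 14000000 only 2 of 24 were. Over the 8 windows below the boundary with 20 or more peaks, 54 of 200 peaks were strong (27.0%, 21.0 to 33.7), against 61 of 272 (22.4%, 17.6 to 27.9) in the 7 such distal windows. The intervals overlap, and the difference between these shares was not tested. The distal windows were fuller: 3 of them held more than 30 peaks, and 1 below the boundary did.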

How the data were processed

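CTCF ChIP-seq peaks came as 1 list for the series. Per the file headers it is a narrowPeak track on mm9 whose name joins ChIP 1 and 2 with input 1 and 2, so peaks were called on combined libraries. Cutadapt and MACS2 version 2.0.10.20131216 are named in the submitters' processing notes. The sources used here name no aligner, duplicate handling or calling threshold. The authors deposited a start, an end and a score for each peak. Since the header does not say how this score was scaled, it served only to rank, filter and describe peaks of the same list.

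Starts were converted to positions counted from 1, and peaks were assigned to windows by midpoint. Spans run between the boundary and the outermost peak, since chromosome lengths of mm9 were not used. Densities carry exact Poisson intervals, shares exact binomial (Clopper-Pearson) intervals, and ratios exact conditional intervals, all at 95% and for counting error only (Python 3.11.15, SciPy 1.17.1). These calculations were tested on simulated lists. No test was run, because the list holds no value per library. The members, windows and gene names were chosen with earlier results of these data known. Peaks named are the 20 strongest, the 5 strongest and 3 weakest of the dense stretch, runs of 3 or more, the 5 longest peak-free stretches, the 5 fullest 100 kb windows, the 3 widest peaks and those next to the boundary. The peaks between 122800001 and 123000000 were named after their values had been seen. Neither sequence nor annotation of mm9 was used, so peaks carry no gene names, bases or motifs. Alternatives were score filters, joining of peaks under 1 kb apart, a moved boundary, and other distances.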

Additional observations from a re-analysis of the deposited data

How the results depend on the processing

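The distal density of 27.1 peaks per Mb became 12.4 with scores of 93 or more, 5.75 with strong peaks only, 24.0 after joining and 15.7 without the dense stretch. Its ratio of 5.29 to the rest of the chromosome stayed above 1 under all 6 alternatives, and was lowest at 4.18 for strong peaks and 3.07 without the stretch. The region was picked with its density known and the alternatives reuse its peaks, so a ratio above 1 is no test. The share of strong peaks was 7.28% and 45.7% with thresholds of 338 and 93, and 16.3% without the first Mb of the stretch. Within that Mb the share was 12.7% and 58.7% with these thresholds and 25.0% without its last 200 kb. Close neighbours were 51.0% within 5 kb, 83.1% within 20 kb, 58.8% after joining and 55.5% without the stretch. The stretch held 42 strong peaks and 87 scoring 93 or more. The median width was 674 bp among strong peaks, and 13 runs remained with a gap under 500 bp. Lower counts and densities under a score filter follow from the filter, whereas the lower ratio goes with the smaller distal share of strong peaks. The other 18 values lay within the interval of the reported value or within 1.5 times the reported count. The ratio's alternatives, those for the first Mb and those leaving out a stretch were added after seeing the data. Read depth is unknown, so an empty window does not show that binding was absent. No paired analysis was possible because only pooled peaks were given, and no replicate could be left out.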
